A study of Drosophila melanogaster with 76 samples.

Results

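Zelda (Zld) is the zinc-finger factor that opens chromatin at the first zygotic genes of the fly embryo, and it is called a pioneer factor because it can bind its motif in closed chromatin. The Polycomb system keeps developmental regulators silent through the mark H3K27me3, which Polycomb repressive complex 2 writes with its catalytic subunit E(z). Tazemetostat inhibits that enzyme; the labels write a treatment as "taz", without dose or time, and it is read here, from knowledge of the study, as tazemetostat. The comparison therefore addresses whether expressed Zld occupied other regions when this mark was to be lowered.

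The regions described here are Zld ChIP-seq regions gained with taz. They were chosen by the called regions of 4 peak lists: a region of the list with taz was kept when it overlapped, by 1 bp or more, no region of 3 other lists. The rule kept 463 of the 3222 regions of that list, 14.4% (95% interval 13.2 to 15.6), out of 179969 regions in the 31 lists of the series. All 4 lists came from immunoprecipitation with the anti-Zld antibody in Drosophila melanogaster S2 cells, a cultured line with properties of blood cells. The list with taz and its solvent control, with DMSO, came from the line S2-Zld, which expresses Zld from a copper-inducible construct, at 1000 µM CuSO4. The other 2 lists came from the same line at 0 µM CuSO4 and from S2-WT cells, which lack the construct, at 1000 µM CuSO4. Cells were harvested 48 hours after induction, and the labels do not say whether the line is 1 clone. The identity of the cells cannot be checked from DNA binding.

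Each list belongs to 2 libraries and does not separate them. No spread between libraries, and no test, could be computed, and the intervals below are exact binomial ones (Clopper-Pearson) whose width reflects counting error alone. Regions that lie close together are not independent observations. A list gives for each region a fold, the authors' ratio of signal to local background at the summit, which ranks regions within that list. Where folds from several lists are given for 1 region, they show that it was called there and do not rank the lists. The files state no read depth. The background pileup recovered from fold and p-value was 20.3 in the list with taz, 32.1 with DMSO, 36.7 at 0 µM and 51.2 in wild type. In the first 3 of these 1.92%, 3.08% and 4.84% of pileups came out whole, to a relative tolerance of 0.0001, against 100% in wild type, so the scaling of those 3 is unknown. No genome sequence was used here, so the regions are given by position and nearest protein-coding gene.

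The filter on the lists touches every result below. The peaks of each list are numbered along the genome, and the numbers rose at all 2144 neighbouring peaks of the DMSO list. The list with taz kept 3222 of at least 3919 numbers (82.2%), and the DMSO list 2150 of at least 5851 (36.7%). The DMSO list was thus the longer one before peaks were removed and the shorter one as deposited. The list at 0 µM kept 63.0% and the wild-type list 78.6%. A missing number between the listed DMSO peaks on both sides of a gained region means that a peak there had been called and taken out, at a position that the list does not give. Of the 463 gained regions, 452 lay between listed DMSO peaks, with a median of 4 numbers missing. Only 22 of them (4.87%, 3.08 to 7.28) had no number missing, so that the numbering leaves no room for a removed DMSO peak there. For the other 430, a DMSO peak at the same place may have been called and removed, which was not tested. The listed peaks on both sides can lie far apart. Around gained regions by NPFR, Scp1 and wg, 9, 23 and 1 numbers were missing over 672354, 3475046 and 3150 bp. The share over all gaps between listed DMSO peaks was not computed. Against all 3 lists of the rule, 5 gained regions had no number missing.

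**Figure D1:**
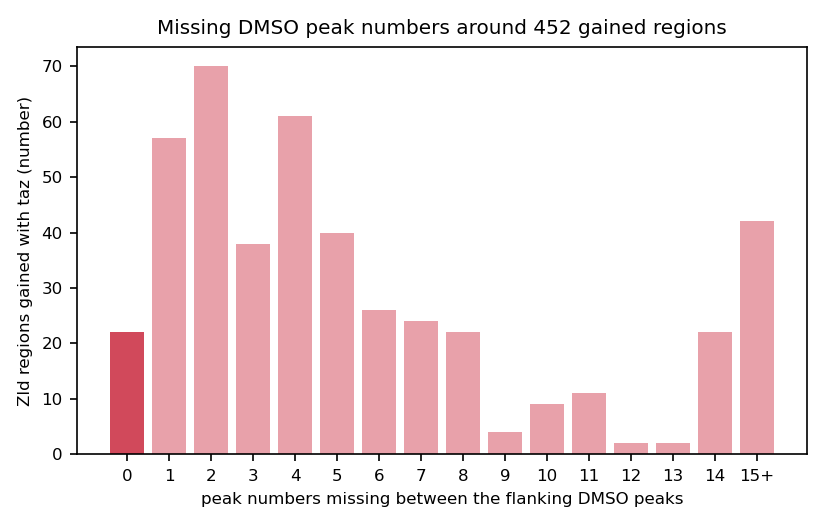
The number of DMSO peak numbers missing between the listed DMSO peaks on both sides of each gained region (x axis; the last bar holds 15 or more), against the number of gained regions (y axis). The dark bar holds the 22 regions with none missing, and the 11 regions at a chromosome end are left out.

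The gained regions of highest fold are named by the protein-coding gene that holds the summit, or else by the nearest one. The nearest gene can lie far away, and no target gene is implied. The highest fold among the gained regions, 6.49, belonged to a region inside CG14669 (chromosome 3R, 5438722 to 5439178, build dm6). Next was a region 101 bp from NPFR, which encodes the neuropeptide F receptor (3R, 6195268 to 6195717, fold 6.39). A region 12945 bp from hth, which encodes a homeodomain partner of Hox proteins (3R, 10652265 to 10652953), had a fold of 6.25. A region 6665 bp from the Wnt ligand gene wg (2L, 7322621 to 7323731) held 2 summits and had a fold of 5.95.

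The same fold, 5.95, was given to a region inside nAChRalpha4, a nicotinic receptor subunit gene (3L, 23278674 to 23279434). A second region of that gene (3L, 23240841 to 23241548) had a fold of 4.95. Prosbeta5R2, a proteasome subunit gene (2L, 17989405 to 17990083, 728 bp away), stood at 5.78, and the Bar homeobox gene B-H2 (X, 17350783 to 17351265, 26870 bp away) at 5.58. These genes have no role in common that the lists show.

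The other regions among the 15 of highest fold lay inside Scp1, which encodes a calcium-binding protein (2R, 2947411 to 2947915, fold 5.48), inside Hs6st, a heparan sulfate sulfotransferase gene (3R, 20001935 to 20002712, 5.36), and inside fz3, a gene of the Frizzled family (X, 778896 to 779572, 5.24). A region 61 bp from pwn had a fold of 5.20 (2R, 7300624 to 7301048), and one inside SKIP a fold of 4.99 (3R, 22183519 to 22184469). Regions 14566 bp from CG42747 (3L, 6385644 to 6386334, 4.99) and 60243 bp from CG12362 (3L, 10352145 to 10352879, 4.79) completed the 15. In all, 9 of the 15 summits lay in a gene or within 500 bp of its end, and 6 lay farther outside.

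These regions were not among the strongest of their own list: of the 100 regions of highest fold with taz, 3 were gained ones (3.00%, 0.623 to 8.52), against the 14.4% in the whole list. The median fold of the gained regions was 2.55 (quartiles 2.16 and 3.01, range 1.60 to 6.49). Regions called with taz and with DMSO but not at 0 µM or in wild type, 767 in number, had a median of 3.17 (2.57 and 4.07). They are regions of the induced line called under both treatments, and serve as the comparison below. The 1992 regions of the list that were also called at 0 µM or in wild type had a median of 2.34 (1.98 and 2.95). Gained regions were also narrower than the comparison regions, with a median of 359 bp against 573 bp, and 9.50% (6.99 to 12.5) against 19.8% (17.1 to 22.8) held several summits. Fold, width and overlap come from the same peak calls, so these differences are descriptions of what the rule chose.

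**Figure D2:**
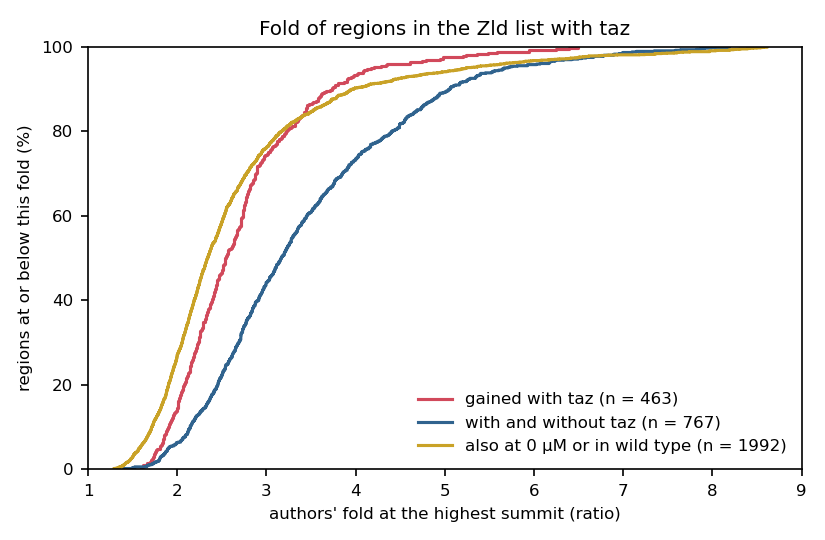
Share of regions at or below a given authors' fold (y axis, %) against the fold at the highest summit (x axis, ratio) in the Zld list with taz, for 3 classes of region. The curve of the gained regions (median 2.55) runs to the left of that of the regions called with and without taz (median 3.17).

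The widest gained region covered 2216 bp with 4 summits inside Maf1, which encodes a repressor of RNA polymerase III (2R, 1521300 to 1523515, fold 4.13). Next in width were a region 1640 bp from CG43407 (3L, 19054367 to 19055659, 1293 bp, fold 4.17) and one inside AdamTS-B (X, 5699528 to 5700743, 1216 bp, fold 3.74).

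More Zld regions were lost than gained between the lists. Outside the 0 µM and wild-type lists, 706 of the 2150 DMSO regions (32.8%, 30.9 to 34.9) had no counterpart with taz, against the 463 gained. Nothing is read from these 2 shares about the members, since the rule used the same lists. Of the lost regions 43.3% (39.6 to 47.1) had no taz peak number missing beside them, against the 4.87% of gained regions with no DMSO number missing. The list with taz kept 82.2% of its numbers and the DMSO list 36.7%, and the part of this in the 2 shares was not tested. For Grainy head (Grh), a regulator of epithelial genes, the same rule gave 680 gained of 9317 regions (7.30%, 6.78 to 7.85) and 1079 lost of 9320 (11.6%, 10.9 to 12.2). For HA-tagged Twist (HA-Twi), a mesoderm factor, it gave 1728 gained of 3968 (43.5%, 42.0 to 45.1) and 155 lost of 2197 (7.06%, 6.02 to 8.21). Each factor had its own line and antibody, with taz and DMSO at 100 µM CuSO4 for Grh and 40 µM for HA-Twi. The 0 µM list of that line and the wild-type list with that antibody, at the same dose, stood in for those of Zld. The share of numbers kept was higher with taz than with DMSO for all 3 factors (86.8% against 68.9% for Grh, 68.9% against 39.8% for HA-Twi), and its part in these counts was not tested.

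Zld lists made without taz also held regions that the 3 lists of the rule lacked. Of the 4 Zld lists with copper and neither taz nor DMSO, the single-dose list at 1000 µM held 542 regions outside the same 3 lists (8.40%, 7.74 to 9.11). The dose series held 1059 at 500 µM (11.8%, 11.1 to 12.5), 1076 at 1000 µM (11.4%) and 1608 at 1500 µM (16.7%). Of the regions outside the 0 µM and wild-type lists, the DMSO list lacked 37.6% for the list with taz. It lacked 49.0% for the single-dose list and 81.5%, 67.3% and 61.7% for the series at 500, 1000 and 1500 µM. These shares rest on the lists that the rule used, so nothing is read from them about the gained regions.

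The next question was whether the gained regions were called without taz in experiments that the rule had not used. A region in at least 1 of the 4 lists without taz overlapped 212 of the 463 (45.8%, 41.2 to 50.4). All 4 held 21 of them, and none held 251. The share was 12.7% (9.84 to 16.1) at 500 µM, 23.1% (19.3 to 27.2) at 1000 µM, 29.2% (25.1 to 33.5) at 1500 µM and 27.2% (23.2 to 31.5) in the single-dose list. It was higher at each dose of the series than at the dose below, though the intervals at 1000 and 1500 µM overlapped. The share of the comparison regions rose too, with 21.8%, 52.4% and 86.8% at 500, 1000 and 1500 µM. The lists at these doses held 8988, 9449 and 9615 regions, and the part of list length was not tested.

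Comparison regions, called with and without taz, were found in at least 1 of the 4 lists in 89.3% of cases (86.9 to 91.4), and at 1500 µM in 86.8% (84.2 to 89.1). Regions lost with taz were found there in 61.8% (58.1 to 65.4), and at 1500 µM in 57.5% (53.8 to 61.2). The intervals of the 3 classes did not overlap in either measure. In the other 3 lists the lost regions were not found more often than the gained ones, with 10.5% (8.32 to 13.0) at 500 µM, 17.4% (14.7 to 20.4) at 1000 µM and 26.8% (23.5 to 30.2) in the single-dose list. Both of these classes were called with DMSO in the first place, while the gained regions were chosen for being absent there. The share of gained regions found without taz showed no steady trend with their fold. From the lowest to the highest of 4 groups of 115 or 116 by fold, it was 44.8% (35.6 to 54.3), 48.3% (38.9 to 57.7), 39.1% (30.2 to 48.7) and 50.9% (41.4 to 60.3), and the intervals overlapped.

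Among the 15 strongest, 10 were called in at least 1 list without taz. The region inside CG14669 had folds of 4.34 at 1000 µM, 5.47 at 1500 µM and 6.27 in the single-dose list and was not called at 500 µM. The region in nAChRalpha4 of highest fold had 2.45, 2.65 and 7.46 in the same 3 lists. The region near wg had 2.74, 2.55 and 2.58, and that in Scp1 was called at 1000 µM (3.86) and in the single-dose list (3.85). These regions were called in cells that had received no taz.

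The region in fz3 was called at all 3 doses of the series (3.12, 4.53 and 3.29) and not in the single-dose list. The region by pwn was likewise called at all 3 doses (4.03, 4.76 and 6.00). The region near hth was called at 1000 µM alone (3.47), that by Prosbeta5R2 in the single-dose list alone (3.46), and that near CG42747 at 1500 µM alone (2.01).

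**Figure D3:**
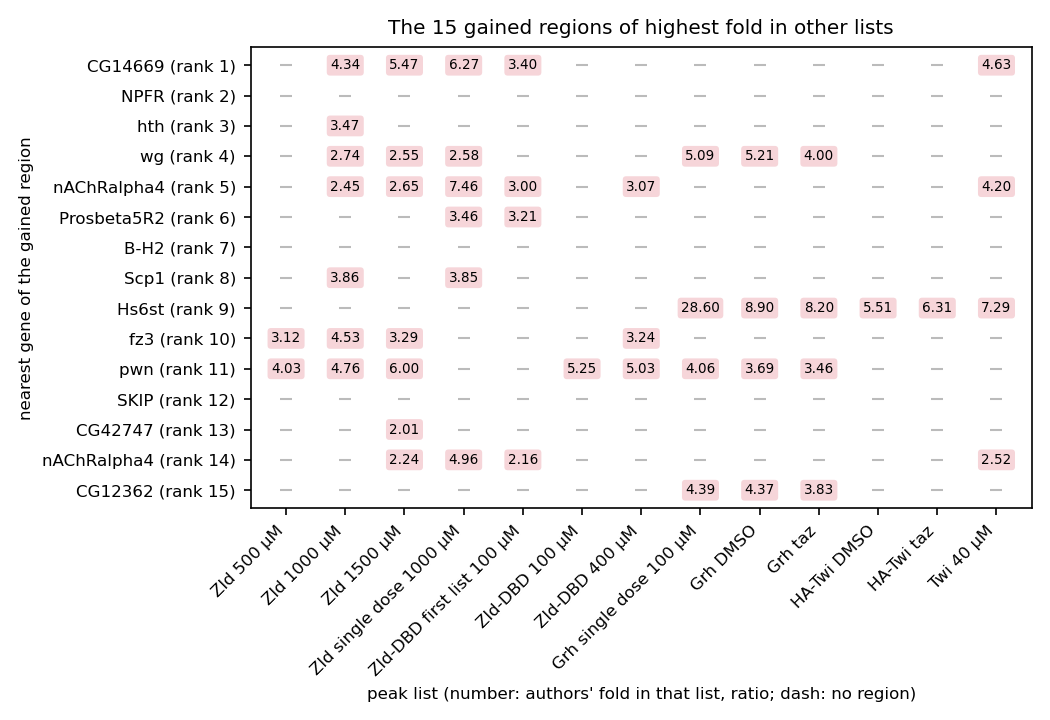
The 15 gained regions of highest fold (y axis, named by the nearest gene) in 13 other peak lists (x axis); a number is the authors' fold in that list, and a dash means that no region overlapped. The rows of NPFR, B-H2 and SKIP are empty, and 10 rows have a number in at least 1 of the 4 lists of full-length Zld on the left.

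The 30 other lists together left 122 gained regions with no overlap (26.3%, 22.4 to 30.6). The strongest were those at NPFR (fold 6.39), B-H2 (5.58) and SKIP (4.99), a region 15061 bp from the Iroquois homeobox gene mirr (3L, 12678255 to 12678937, fold 4.62) and the region by CG43407 (4.17). Around these, 9, 8, 7, 2 and 2 DMSO peak numbers were missing, over 672354, 317930, 339965, 15622 and 23298 bp, in this order. The median gained region was called in 3 other lists, and 53 were called in 10 or more. Of the regions lost with taz, 195 of 706 (27.6%, 24.4 to 31.1) were in no other list, a share within counting error of that of the gained ones.

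The truncated Zld-DBD, named for the DNA-binding domain, was mapped in 3 lists. Of the gained regions 87 (18.8%, 15.3 to 22.7) overlapped a region of at least 1 of them, against 8.47% (6.60 to 10.7) of the comparison regions and 2.69% (1.63 to 4.17) of the lost ones. In the first Zld-DBD list at 100 µM the shares were 9.72%, 3.65% and 0.992%, in the later list at 100 µM 7.78%, 4.43% and 1.27%, and at 400 µM 12.3%, 6.78% and 1.70%. Of these 3 classes the gained regions had the highest share and the lost ones the lowest in each list, but in the later list at 100 µM the interval of the gained regions overlapped that of the comparison regions. Regions of the list with taz also called at 0 µM or in wild type had far higher shares, 29.3%, 62.0% and 69.0% in the same order of lists. Examples among the gained regions were that of highest fold in nAChRalpha4 (3.00 in the first list) and that by pwn (5.25 in the later list at 100 µM and 5.03 at 400 µM).

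**Figure D4:**
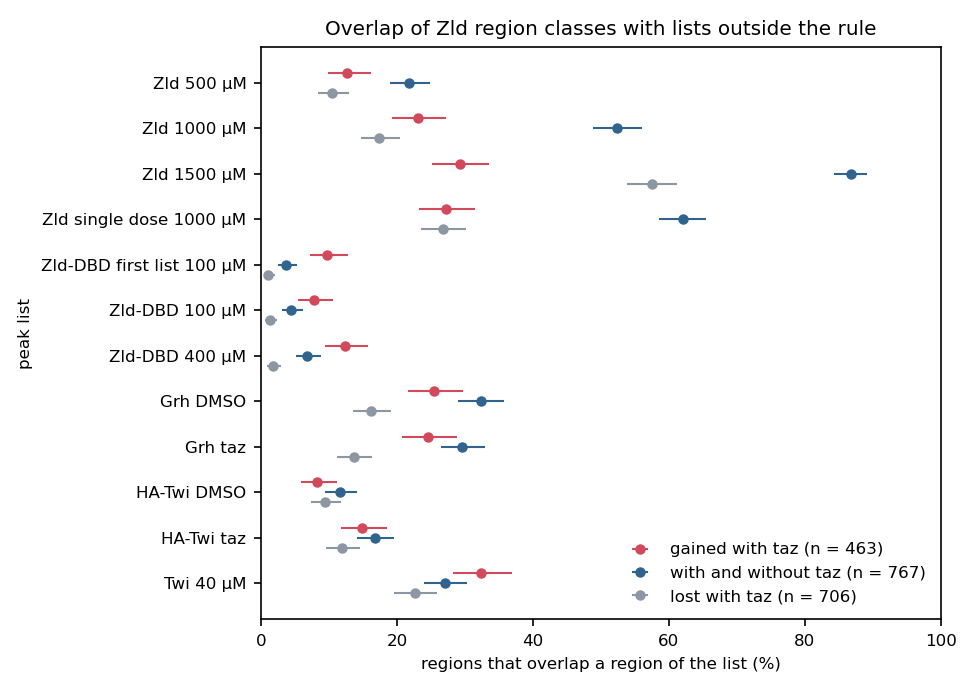
Share of regions of 3 classes that overlap a region of each of 12 lists outside the rule (x axis, %; bars are exact 95% binomial intervals). Gained regions sit below the regions called with and without taz in the 4 full-length Zld lists and above them in the 3 Zld-DBD lists.

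Other factors occupied part of the gained regions, with and without taz. Grh regions overlapped 24.6% of them in the list with taz (20.8 to 28.8) and 25.5% in the list with DMSO (21.6 to 29.7). HA-Twi regions overlapped 14.9% with taz (11.8 to 18.5) and 8.21% with DMSO (5.87 to 11.1), where the lists held 3968 and 2197 regions. For the comparison regions these shares were 29.6% and 32.3% for Grh and 16.7% and 11.6% for HA-Twi. Twi, mapped with its own antibody at 40 µM CuSO4, overlapped 32.4% of the gained regions (28.2 to 36.9) and 27.0% of the comparison regions (23.9 to 30.3). For each of these lists the intervals of gained and comparison regions overlapped. The 2 HA-Twi shares of a class are of the same regions, so their intervals are not compared. The HA-Twi share was higher with taz than with DMSO for the gained and the comparison regions. It was higher for the lost ones too (11.9% against 9.35%), and the part of list length was not tested. Seen from the other side, the gained Zld regions took up 1.21% of the Grh and 1.71% of the HA-Twi regions with taz.

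Regions gained with taz by the same rule were mostly different ones for each factor. Of the 463 Zld regions, 10 (2.16%, 1.04 to 3.94) overlapped a Grh region gained with taz, and these made up 1.47% of the 680. For HA-Twi the overlap was 37 of the 463 (7.99%, 5.69 to 10.8), and 2.08% of the 1728. The comparison regions overlapped gained Grh regions in 1.17% (0.538 to 2.22) and gained HA-Twi regions in 5.74% (4.20 to 7.62) of cases, and the intervals overlapped.

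Only 3 gained Zld regions were called with taz and not with DMSO for both Grh and HA-Twi. They lay inside bs, which encodes the fly serum response factor (2R, 24374698 to 24375051, fold 2.29), 517 bp from obst-A, a gene of cuticle organisation (X, 20243619 to 20243881, 2.26), and 115 bp from SPoCk, a calcium pump gene (3L, 22749103 to 22749483, 2.00). All of them were also called in the single-dose lists of Zld and Twi, made without taz.

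The gained regions mostly lay away from gene ends. Of their summits 12.7% (9.84 to 16.1) were within 500 bp of an end of a protein-coding gene, 55.3% (50.6 to 59.9) elsewhere inside a gene and 32.0% (27.7 to 36.4) outside genes. The annotation table has no strand, so starts and ends of genes were not separated. Comparison regions lay near a gene end in 5.61% of cases (4.09 to 7.48), and lost ones in 9.35% (7.30 to 11.7). The regions of the same list that were also called at 0 µM or in wild type lay there in 63.5% (61.3 to 65.6). Gained regions were thus near gene ends more often than comparison regions and far less often than regions also called at 0 µM or in wild type.

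**Figure D5:**
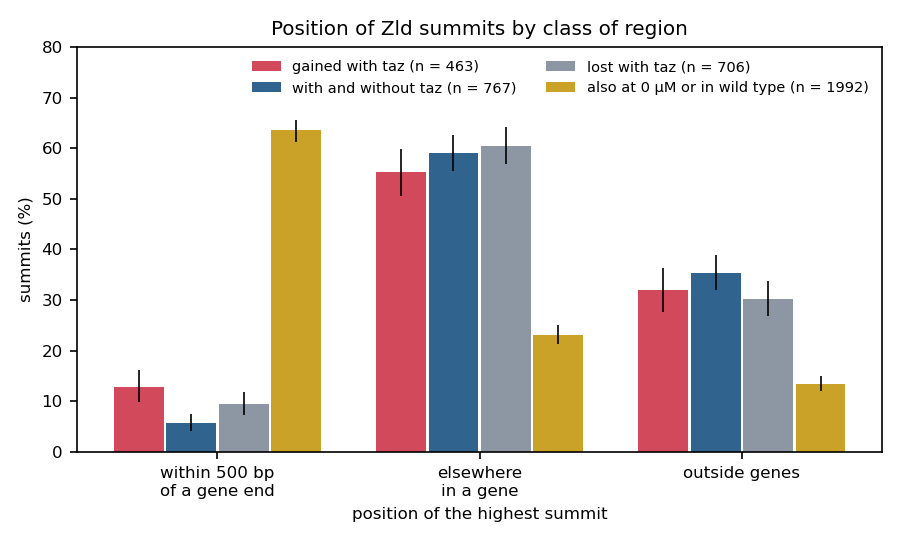
Share of summits (y axis, %; bars start at 0, lines are exact 95% binomial intervals) within 500 bp of a gene end, elsewhere inside a gene or outside genes, for 4 classes of Zld region. Regions also called at 0 µM or in wild type lie near gene ends in 63.5% of cases, gained ones in 12.7%.

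Along the chromosomes the gained regions were spread over all arms, with 110 on 3L, 96 on 2L, 94 each on 2R and 3R, 60 on X and 9 on chromosome 4. The small chromosome 4 carried 1.94% (0.893 to 3.66) of the gained regions and 3.97% (3.15 to 4.92) of those also called at 0 µM or in wild type. It carried 3 of the 706 lost regions (0.425%, 0.0877 to 1.24), with an interval that overlapped that of the gained ones. None of the 767 comparison regions lay there, a count that allows a share of up to 0.391% by the floor of 3 counts and 0.480% by the exact interval. In the 20% of an arm next to the centromere, a window chosen after the values were seen, lay 17.2% of the gained regions (13.8 to 21.0). The comparison regions had 8.60% there (6.72 to 10.8), the lost regions 7.68% (5.82 to 9.90) and protein-coding genes 8.86%. The regions of the list also called at 0 µM or in wild type had 12.7% there (11.2 to 14.3).

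Some genes held several gained regions. Within the span of a gene or 2000 bp of it, 343 of 13922 protein-coding genes (2.46%) had a gained region, 56 had 2 or more and 5 had 4 or more. The gene nAChRalpha4 held 7, with folds of 5.95, 4.95, 3.58, 3.46, 2.43, 2.27 and 2.09. The listed DMSO region nearest to any of them lay 290385 bp away. Between the listed DMSO peaks on both sides, 14 numbers were missing over 1077533 bp. Neighbouring gained regions of this gene overlapped 1 wide single-dose region in places, so they are not separate observations. SKIP held 6, with folds of 4.99, 3.51, 2.72, 2.26, 2.13 and 2.13, of which 5 were in no other list. The muscle founder cell gene kirre, sbb and bbg held 4 each. Genes with a gained region were long, with a median span of 18200 bp against 2163 bp for all protein-coding genes, and of the 1976 genes of 10000 bp or more 10.7% had one.

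Genes of the Polycomb target list, developmental regulators, are known to carry the mark that the treatment is meant to lower. Of these 50 genes, 12 (24.0%) had a gained region, against the 2.46% of all genes. They are long genes as well, with a median span of 14974 bp: all 12 were among the 35 of 10000 bp or more (34.3%), where 10.7% of all such genes had one. Regions called with and without taz lay at 18 of the 50 (36.0%, against 3.11% of all genes), and regions lost with taz at 21 (42.0%, against 4.38%). Of the 35 long ones, 51.4% had a region of the first kind and 48.6% one of the second, against 12.8% and 14.8% of all long genes. In each of these classes the Polycomb target genes had a higher share than all genes, among the long ones too, and no difference between the classes was tested. Regions with taz also called at 0 µM or in wild type lay at 13 of the 50 (26.0%), near the 22.1% of all genes. For these the long genes were not compared.

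Each of the 12 genes had 1 gained region within 2000 bp of its span. The Hox genes Abd-B, Antp and Ubx had folds of 3.27, 2.98 and 2.81, hth, at a region inside the gene, 3.42, and the T-box gene H15 3.42. The Pax genes gsb-n and ey had 3.36 and 2.98, the Hedgehog ligand gene hh 3.35, and eya, which acts with ey in eye development, 3.04. The homeobox gene inv (2.38), the POU gene nub (2.32) and bab1 (1.95) were lowest. Of these 12 regions 6 were in no other list, namely those of H15, gsb-n, hh, eya, Antp and inv, and 2 were called without taz in a full-length Zld list (ey and bab1). Of all 463 gained regions, 26.3% were in no other list and 45.8% in at least 1 of those Zld lists. With only 12 regions, no difference from these shares was tested. A shared or a lost Zld region lay at 10 of the 12 genes too. That of gsb-n (2R, 25042047 to 25042520) was 1 of the 5 with no peak number missing beside it in any of the 3 lists of the rule.

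Genes that encode Polycomb and Trithorax proteins had a gained region in 3 of 23 cases (13.0%), against 2.46% of all genes and 10.7% of those of 10000 bp or more. Shared regions lay at 1 of the 23 (4.35%, against 3.11% of all genes) and lost ones at 3 (13.0%, against 4.38%). Regions also called at 0 µM or in wild type lay at 14 (60.9%, against 22.1%). The 3 genes with a gained region were jing, which encodes a zinc-finger protein (fold 3.58, called in 15 other lists), and the Polycomb repressive complex 1 genes ph-p (3.06) and Psc (2.77). Psc held 3 gained regions and ph-p 2. E(z), which encodes the enzyme itself, had none.

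Early zygotic genes, the known embryonic targets of Zld, had a gained region in 4 of 48 cases (8.33%), where all protein-coding genes had 2.46%. Shared regions lay at 9 of the 48 (18.8%, against 3.11% of all genes) and lost ones at 14 (29.2%, against 4.38%). The 4 were fkh (3.23), cnc (3.12), sog (2.87) and nub (2.32), which code for regulators of the head and gut, an inhibitor of BMP signalling and a POU protein. Mesoderm genes with a gained region numbered 3 of 20 (15%), with kirre (4.09), sns (2.77) and htl (2.45), and blood cell genes 3 of 23 (13.0%), with lz (2.73), drpr (2.00) and ush (1.73). Epithelial genes numbered 2 of 29 (6.90%), dlg1 at 2.67 and crok at 2.35, and neural genes 1 of 20 (5.00%), pros at 2.07. Ribosomal protein genes numbered 2 of 85 (RpL10, 2.73, and RpL9, 2.19), a share of 2.35% that is near the 2.46% of all genes, and copper and stress genes 0 of 18. Median spans of these lists run from 1333 bp for ribosomal protein genes to 21573 bp for mesoderm genes, and the part of gene length in the counts was not tested.

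The rule turns on an overlap of 1 bp, and few regions were near that limit. Just inside it, the region in axo lay 4 bp and that in sli 5 bp from a region of the rule's lists. The regions nearest to a DMSO region were those near corto, which encodes a chromatin protein (77 bp, fold 3.46), and chn, a zinc-finger gene (88 bp, 1.85), and those inside sbb (91 bp, 2.25), dnr1 (106 bp, 2.96) and CG7991 (148 bp, 2.03). In all, 40 gained regions lay within 500 bp of a region of the rule's lists, and the median distance to a DMSO region was 16577 bp. Just outside, the region at fng overlapped by 8 bp (fold 1.88) and that at CG41128 by 39 bp (2.63).

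The 22 regions with no DMSO peak number missing beside them are those beside which no removed DMSO peak could have lain. Their median fold was 2.51, against 2.55 in the 430 others, and none was among the 15 strongest. The strongest were at CG31482 (3R, 6602254 to 6602861, fold 3.58), osp (2L, 14627083 to 14627941, 3.38), gsb-n (3.36), CG6163 (3L, 11346640 to 11347079, 3.32) and spz5, which encodes a Toll ligand of the Spätzle family (3L, 2885644 to 2885937, 3.20). Of the 22, 7 (31.8%, 13.9 to 54.9) were called in a Zld list without taz, against 198 of the 430 (46.0%, 41.3 to 50.9), a difference within counting error.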

How the data were processed

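ChIP-seq regions were taken from the authors' narrowPeak files, 31 lists for 62 of the 76 libraries, each tied by its name to a group of 2 libraries. Per the submitters' processing notes, the tools were Bowtie2 2.4.4, MACS2 2.2 and deepTools 3.5.1 on build dm6; roles and settings are not listed. The deposited fold is a ratio of signal to local background at the summit, deposited with its −log10 p-value, −log10 q-value and summit offset. No label describes the step that removed peak numbers.

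Rows sharing coordinates were merged, keeping the highest fold. Overlap meant 1 bp. Missing peak numbers were counted between the listed peaks on both sides of a region. Background pileup was solved from fold and a Poisson p-value for −log10 p-values up to 250 and given as the 1st percentile. Gene spans came from RefSeq on Release 6, the assembly of dm6; gene ends replaced the planned gene starts because the table has no strand. Calculations used Python 3.11.15, pandas 2.3.3 and scipy 1.17.1, and the overlap and numbering functions were checked on simulated regions. No model was fitted.

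Named regions are the 15 of highest fold, the 5 highest in no other list, those with taz in Grh and HA-Twi but not in their DMSO lists, the 3 widest, the 5 nearest to a DMSO region, and those at genes of the lists. Of the list genes, 1 (calypso) was not matched. Members and gene lists were chosen with earlier results of these data known. The other 14 libraries were not analysed here.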

Additional observations from a re-analysis of the deposited data

How the results depend on the processing

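No paired analysis was possible because each list pools its 2 libraries, and for the same reason no replicate could be left out. Of 74 alternative values for 9 results, 52 stayed within 1.5 times of a count or within the interval of a share or median. With a region counted as shared when another lay within 500 bp, the share gained was 13.1%. Among regions at or above the median fold, 234 were gained, with a median fold of 3.01, and 58 were in no other list. With a −log10 q-value of at least 10 in all lists, 218 were gained (11.8%), with a median fold of 3.10, and 48 were in no other list. Against the DMSO list alone, 2026 were gained (62.9%), with a median fold of 2.4. Of the 2026, 87.0% were called in a Zld list without taz, 38.5% in the Grh and 6.47% in the HA-Twi list with taz, and 60.9% lay near a gene end. They include regions also called at 0 µM or in wild type. Of that whole class 99.4% were in a Zld list without taz and 63.5% near a gene end. With a window of 1000 bp, 18.8% of the 463 lay near a gene end. In an alternative chosen after seeing the data, only gained regions with no missing DMSO number beside them were kept. These were 22 regions (0.683%), 31.8% called in a Zld list without taz, 9.09% near a gene end, 9 in no other list and 1 at a Polycomb target gene. The fall in counts follows from keeping fewer regions. The rise to 2026, and the shifts in the shares and median fold of that set, follow from also counting regions of the 0 µM and wild-type lists as gained. The median fold of 3.01 follows from keeping only folds at or above the list median, and the 18.8% from the wider window. The cause of the remaining shifts was not tested. The unknown depth and filter limit what an absent region means.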
